A study of Mus musculus with 6 samples.

Results

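The subunits of the mitochondrial respiratory chain and ATP synthase that are encoded in the nucleus were described by complex, in epididymal white adipose tissue (eWAT, the fat pad beside the testis) of mice. Members were chosen by symbol: genes beginning Nduf with a subunit letter and a number, Sdha to Sdhd, genes beginning Uqcr, Cox4 to Cox8 or Atp5, and Cyc1 and Cycs. Cox7a1 and Cox8b were left out, as were symbols marking pseudogenes. This gave 84 of 21829 genes, or 0.385%: 35 in complex I, 4 in complex II, 9 in complex III, 16 in complex IV, 16 in complex V, cytochrome c, and 3 that are not subunits of the usual enzyme. Ndufa4 was counted in complex IV, where its protein is now placed. Of the 84, 81 reached a mean of 1 FPKM over the 6 libraries and were tested; Cox6a2, Cox7b2 and Cox8c, isoforms known from muscle or testis, did not.

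Messenger RNA was compared in 3 libraries labelled ZFP251 KO and 3 labelled wild type (WT), in both cases from male C57BL/6J mice of 20 weeks fed a normal diet, the WT mice being littermates. ZFP251 is a zinc finger protein. How its gene was disrupted, and in which cells, is not stated by the labels used here. Nor do they say whether 2 libraries could share a mouse, and the p-values cover only library-to-library spread, which could be technical in part. Values were read as FPKM, a level per unit of transcript length and of mapped depth, although no header names the unit. Differences are KO minus WT on the log2(FPKM + 1) scale, which understates changes of low genes.

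The respiratory chain sits in the inner mitochondrial membrane. Complex I takes electrons from NADH and complex II from succinate, both pass them to ubiquinone, complex III hands them on to cytochrome c, and complex IV passes them to oxygen. Complexes I, III and IV pump protons, and complex V uses the return of those protons to make ATP. In white fat cells mitochondria supply ATP and also precursors for fatty acid synthesis. A few core subunits of every complex but II are encoded in mitochondrial DNA, and none of those genes is among the rows analysed here.

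Zfp251 itself went against the labels. The libraries labelled KO had 6.48, 5.86 and 6.48 FPKM of it and those labelled WT had 3.73, 3.56 and 2.95 FPKM, so the KO values lay above all WT values (log2 difference 0.72 ± 0.12 SE, limma adjusted p = 0.223; exact permutation p = 0.1, two-sided, the smallest that 3 against 3 allows). Every direction given here is therefore one between libraries so labelled. WT 3 stood apart: its FPKM summed to 637902, against 426966 to 439354 in KO and 468499 to 472120 in WT 1 and WT 2. The main results are given with and without it. Total read depth is unknown, and all 6 libraries had between 11814 and 12813 genes at 1 FPKM or more.

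Marker genes of other cells differed between the labels too. Adipoq and Plin1, which mark fat cells, were abundant in all 6 libraries, and the 20 adipocyte markers summed to 43295 to 52172 FPKM in KO and to 58404 to 102272 FPKM in WT. A few very high genes, such as Cfd and Fabp4, weigh most in those sums. Of the 20, 18 were lower in KO, against 59.2% of all genes, and 16 without WT 3, against 58%. In 7 of the 20 every KO library lay below every WT library, against 12.2% of all genes. Differences ran from -0.78 to 0.12, with Adipoq at -0.67 and Plin1 at -0.09. Of 15 markers of multiciliated cells, 13 were tested and all 13 were higher in KO, the 15 giving sums of 50.7 to 110 FPKM in KO and 2.05 to 40.6 FPKM in WT; all 10 epithelial markers were higher as well, with sums of 109 to 218 FPKM in KO and 8.51 to 91.8 FPKM in WT. The cilia regulator Foxj1 had 44.2, 43.2 and 20.0 FPKM in KO, and 13.9, 0.034 and 0 FPKM in WT. The 10 skeletal muscle markers summed to 10.4 to 20.7 FPKM in KO, 22.6 and 27.8 FPKM in WT 1 and WT 2 and 94.3 FPKM in WT 3, where the creatine kinase Ckm reached 10.3 FPKM. The 7 genes listed for brown fat, which include Cox7a1 and Cox8b, summed to 25.6 to 28.1 FPKM in KO and 30.2 to 81.9 FPKM in WT, with Ucp1 at or near 0 in all 6 libraries. By gene they had no common direction. Of the 4 tested, 2 were lower and 2 higher in KO, with and without WT 3. Cox8b was at -1.26 and Cox7a1 at 0.36 with all 6 libraries, and at -0.88 and 0.79 without WT 3. The 10 macrophage markers summed to 994 to 1343 FPKM in KO and 1112 to 1576 FPKM in WT. By gene 9 of the 10 were lower in KO, with and without WT 3, against 59.2% and 58% of all genes. In 4 every KO library lay below every WT library, against 12.2% of all genes. The part of any of these cell types in the values below was not tested. In such bulk samples fewer cells of a type and less RNA per cell cannot be told apart.

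Transcripts of the respiratory chain made up about the same share of the FPKM total in every library but one. Summed over all 84 members they came to 13184, 13588 and 14145 FPKM in KO, or 3.09%, 3.17% and 3.22% of all FPKM. The WT libraries had 15596, 13742 and 28687 FPKM, or 3.30%, 2.93% and 4.50%. WT 2 thus lay inside the KO range of sums, WT 1 above it, and WT 3 was at 2.03 times the KO 3 value. By share of all FPKM, WT 2 lay below every KO library, and WT 1 and WT 3 above. Without WT 3 the share thus had no common direction between the labels.

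The complexes kept their proportions. Complex I held 26.4% to 27.2% of the summed FPKM of the 5 complexes over the 6 libraries, complex II 3.10% to 3.92%, complex III 11.0% to 12.6%, complex IV 27.8% to 29.7% and complex V 27.9% to 30.2%. For complexes II to V, WT 3 gave an end of each of those ranges. Without it complex II lay between 3.68% and 3.92%, and complex V between 29.4% and 30.2%.

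**Figure D1:**
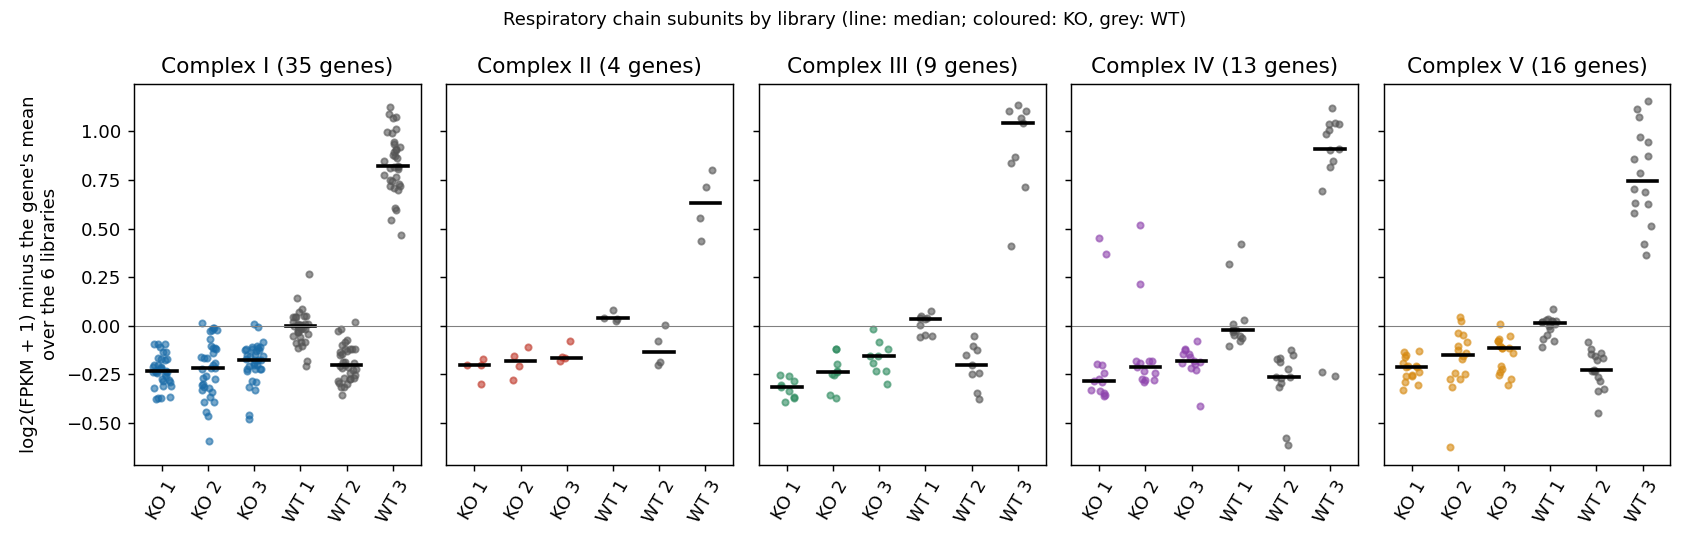
Each point is 1 tested subunit gene in 1 library, as log2(FPKM + 1) minus that gene's mean over the 6 libraries, with a panel for each complex, the KO libraries coloured on the left, the WT libraries grey on the right and a line at the median. The WT 3 medians lie between 0.63 (complex II) and 1.05 (complex III), while those of the other 5 libraries lie between -0.31 and 0.04.

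With all 6 libraries nearly every subunit gene was lower in KO, and no single one passed the test. The difference was below 0 for 78 of 81 members, against 59.2% of the 12539 genes tested. At an adjusted p under 0.05 limma called 0 members and 0% of all genes, the lowest member value being 0.312, for Ndufs1. At an unadjusted p under 0.05 it called 3 members lower, Ndufs1 and Ndufc1 among them, which is 3.70% of the 81 against 4.43% of all genes, and 0 higher, against 9.13% of all genes (13.6% in either direction).

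That unadjusted count depended on single libraries. In either direction it was 26 without WT 2 (32.1% of the 81, against 17.5% of all genes), all lower, against 8.38% of all genes lower. Without WT 3 it was 7 (8.64%, against 13.7%), all lower, against 5.67% lower. Without WT 1 it was 4 (4.94%, against 14.7%), of which 3 were lower, against 5.26% lower. The count was 1 without KO 3 (1.23%, against 13.5%), and 0 without KO 1 or KO 2, against 6.91% and 7.03%. Leaving out WT 1 gave 482 genes (3.84%) past the adjusted threshold, none of them a member. Array weights, which let limma count a deviant library for less, gave 970 genes (7.74%) past the threshold and 3 members (3.70%), Ndufb3 and Ndufs1 among them, all lower in KO. Those weights were 4.02 for WT 1, 0.472 for WT 2 and 0.142 for WT 3. The WT side of that fit thus rested mostly on WT 1, which lay above the whole KO range for 70 of the 81 members.

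Much of this difference rested on 1 library. WT 3 was the highest of the 6 libraries for 78 of 81 members, against 40.3% of all genes; the 3 exceptions were Cox4i2, Cox6b2 and Ndufa4l2. Against the mean of WT 1 and WT 2 its median ratio of FPKM was 1.93 over the members and 1.04 over all tested genes. Without WT 3 the median difference of the members was -0.10, against -0.41 with it, and over all tested genes it was -0.03 without and -0.05 with WT 3. Still 73 of 81 members were below 0 without WT 3, against 58% of all genes. The 2 remaining WT libraries were unlike: WT 1 lay above the whole KO range for 70 of the 81 members, WT 2 for only 16, and WT 2 lay below it for 17. The median coefficient of variation of a member was 6.57% over the 3 KO libraries and 42.4% over the 3 WT libraries.

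**Figure D2:**
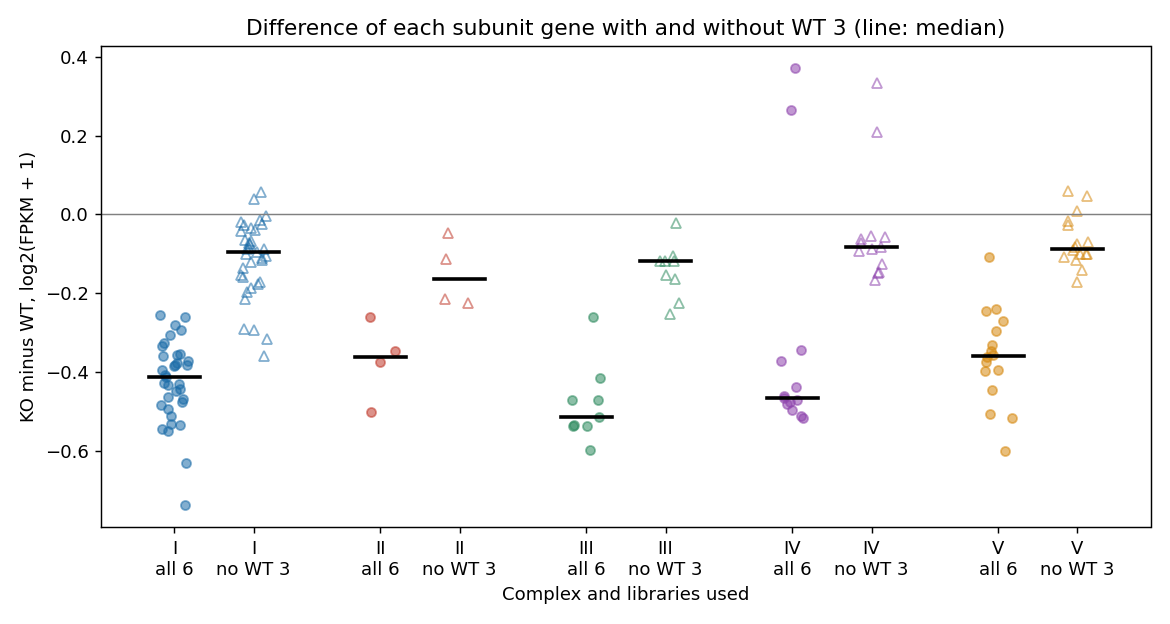
Each symbol is 1 tested subunit gene, its KO minus WT difference in log2(FPKM + 1) on the vertical axis, with all 6 libraries (filled circles) and without WT 3 (open triangles), and a line at the median. Medians run from -0.51 (complex III) to -0.36 (complexes II and V) with all 6 libraries and from -0.17 (complex II) to -0.08 (complex IV) without WT 3.

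In 16 of 81 members, or 19.8%, every KO library lay below every WT library, against 12.2% of all genes. The reverse held for 0 members, against 10.1% of all genes. They included Ndufa3, Ndufa7, Ndufa9, Ndufb10, Ndufc1, Ndufs1 and Ndufs3 of complex I, Sdha and Sdhb of complex II, Uqcrc2 and Uqcrfs1 of complex III, Cycs, Cox4i1 and Cox7a2 of complex IV, and Atp5b of complex V. Without WT 3 the same 16 remained, against 17.9% of all genes, so the share of members was then near the background. At an unadjusted p under 0.05 without WT 3 limma called 7 members lower, or 8.64%, against 5.67% of all genes, and 0 higher, against 8.01% (13.7% of all genes in either direction). They included Ndufc1, Ndufs1, Ndufs3, Sdha, Sdhb and Uqcrc2, and 0 members passed at an adjusted p under 0.05 (0.349 for each of the 7), against 0% of all genes.

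Promoters of 67 members (72 windows) were found in RefSeq for GRCm38.p6, each running from 250 bases before to 50 after the start. The letters of motifs for 4 factors known to bind promoters of respiratory genes were searched on both strands. CCGGAAG, the core of the GABPA motif, stood in 16 of 72 windows (22.2%), against 8.86% of 32851 promoter windows of all genes. AAGATGGC, for YY1, stood in 10 (13.9% against 2.75%), GCGCA followed by TGCGC, for NRF1, in 5 (6.94% against 0.971%), and TCAAGGTCA, for ESRRA, in 2 (2.78% against 0.423%). No pair of these motifs contains another, and a match is a description of the letters, not of binding. The promoters of 3 members of which every KO library lay below every WT library are printed with that of Cox6a1, a complex IV subunit that carries letters for both NRF1 and GABPA and overlapped between the labels. The 3 were picked among those whose window holds a motif. Other members separated in the same way, such as Atp5b, Cycs and Sdha, have windows with none of the 4 motifs. A link between motif and direction was not tested. Capitals mark the motif letters, and the strand is that of the gene.
Ndufc1, chr3:51408906-51409205, minus strand: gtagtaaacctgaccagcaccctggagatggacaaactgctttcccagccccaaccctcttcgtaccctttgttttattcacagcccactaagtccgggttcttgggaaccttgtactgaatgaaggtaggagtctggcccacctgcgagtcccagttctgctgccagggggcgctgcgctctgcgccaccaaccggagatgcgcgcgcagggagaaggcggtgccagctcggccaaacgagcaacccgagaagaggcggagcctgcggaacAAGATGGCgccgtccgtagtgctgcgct
Ndufs3, chr2:90904672-90904971, minus strand: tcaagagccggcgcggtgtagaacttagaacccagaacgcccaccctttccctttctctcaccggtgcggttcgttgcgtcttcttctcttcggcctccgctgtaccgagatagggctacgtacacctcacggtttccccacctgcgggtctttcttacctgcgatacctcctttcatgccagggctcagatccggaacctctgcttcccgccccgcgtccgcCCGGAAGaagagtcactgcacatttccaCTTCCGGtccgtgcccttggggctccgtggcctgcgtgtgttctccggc
Sdhb, chr4:140961021-140961320, plus strand: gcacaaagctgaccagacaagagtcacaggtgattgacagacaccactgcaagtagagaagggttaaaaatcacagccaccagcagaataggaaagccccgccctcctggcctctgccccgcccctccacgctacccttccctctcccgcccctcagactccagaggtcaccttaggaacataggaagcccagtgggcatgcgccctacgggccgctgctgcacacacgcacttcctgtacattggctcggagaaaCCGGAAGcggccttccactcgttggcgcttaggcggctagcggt
Cox6a1, chr5:115348909-115349208, minus strand: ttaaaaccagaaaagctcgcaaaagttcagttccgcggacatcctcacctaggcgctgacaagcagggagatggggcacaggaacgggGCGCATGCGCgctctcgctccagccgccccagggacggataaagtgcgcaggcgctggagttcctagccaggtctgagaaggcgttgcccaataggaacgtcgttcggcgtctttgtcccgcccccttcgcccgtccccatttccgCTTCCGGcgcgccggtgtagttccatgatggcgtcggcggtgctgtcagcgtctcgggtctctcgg
In these windows Ndufc1 carries the YY1 letters downstream of its start, Ndufs3 carries the GABPA letters in both orientations, and Sdhb carries them once.

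Complex I, the largest complex, was lower in KO for 35 of 35 genes with all 6 libraries, with a median of -0.41 (range -0.74 to -0.26). Without WT 3, 33 were lower and 2 higher, with a median of -0.10 (range -0.36 to 0.06). Its 7 core subunits, which hold the flavin and the iron-sulfur clusters, had medians of -0.41 with and -0.10 without WT 3, and its 28 accessory subunits -0.42 and -0.09.

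Ndufs1 (ENSMUSG00000025968, chr1:63143596-63176833 on GRCm38, as for all gene positions here) encodes the largest core subunit, which carries iron-sulfur clusters in the arm that takes up NADH. It had 43.9, 42.4 and 49.7 FPKM in KO, and 57.0, 54.3 and 82.0 FPKM in WT. All KO libraries lay below all WT libraries, also without WT 3. The difference was -0.48 ± 0.18 (SE; limma adjusted p = 0.312) and without WT 3 it was -0.29 ± 0.09 (adjusted p = 0.349).

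Ndufs3, another core subunit of the arm in the matrix, had 76.1, 74.4 and 68.1 FPKM in KO and 85.1, 84.2 and 144 FPKM in WT. The 2 lower WT libraries lay close together and above all KO libraries, with a difference of -0.47 ± 0.22 with WT 3 and -0.21 ± 0.08 without it (adjusted p = 0.415 and 0.349). Of its stretches of 75 bases, 27.1% also occur in 1 other annotated gene.

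Other core subunits were nearer to 0 without WT 3. Ndufv1, the subunit that binds NADH, had 86.3, 78.7 and 84.6 FPKM in KO and 93.3, 84.7 and 135 FPKM in WT, a difference of -0.29, and -0.10 without WT 3. Its partner Ndufv2 was at -0.40 and -0.09, Ndufs7 at -0.41 and -0.07, and Ndufs8 at -0.36 and -0.07. In all 4 the KO and WT libraries overlapped.

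Ndufc1 (chr3:51404677-51408988), an accessory subunit of the membrane arm with a transcript of only 315 nt, had the lowest difference of complex I in both settings. It had 107, 102 and 113 FPKM in KO, against 139, 137 and 304 FPKM in WT. The KO libraries lay close together and below WT 1 and WT 2, which also lay close together. Its difference was -0.74 ± 0.31 (SE; limma adjusted p = 0.367), and -0.36 ± 0.08 without WT 3 (adjusted p = 0.349).

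Ndufb3, another membrane arm subunit, was second in size at -0.63 ± 0.30, and at -0.32 without WT 3, but its libraries overlapped, with 103, 95.9 and 123 FPKM in KO and 159.9, 110.2 and 257 FPKM in WT. At the other end, Ndufa8 was at -0.26 with all 6 libraries and -0.09 without WT 3. Ndufa11 and Ndufb7 were at -0.28 and -0.33 with WT 3 and at 0.06 and 0.04 without it. Levels per length ran from Ndufb4, with 15.7, 18.4 and 12.8 FPKM in KO and 15.9, 15.5 and 39.5 FPKM in WT, to Ndufb9, with 196, 195 and 225 FPKM in KO and 234, 209.6 and 492 FPKM in WT. In both the labels overlapped, and WT 3 stood above the other libraries.

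Complex II is the one complex made wholly of subunits encoded in the nucleus, and it is also an enzyme of the citric acid cycle. All 4 of its genes were lower in KO with all 6 libraries (median -0.36, range -0.50 to -0.26) and without WT 3 (median -0.17, range -0.22 to -0.05). Its median transcript length of 2066 nt was the longest of the 5 complexes, and its median ratio of WT 3 to the other WT libraries, 1.64, the lowest.

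Sdha (chr13:74322254-74350280), the flavin subunit that oxidises succinate, had 159.7, 165 and 164 FPKM in KO, and 195, 184 and 249 FPKM in WT. The KO values spanned a narrow range below every WT value. The difference was -0.35 ± 0.15 (SE; limma adjusted p = 0.375), and -0.22 ± 0.07 without WT 3 (adjusted p = 0.349). Sdhb, the iron-sulfur subunit, had 93.0, 94.5 and 102 FPKM in KO, and 117, 109 and 201 FPKM in WT. Here too all KO libraries lay below all WT libraries, with a difference of -0.50 ± 0.24, and -0.22 ± 0.08 without WT 3 (adjusted p = 0.419 and 0.349).

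The membrane anchors differed less. Sdhc had 98.3, 105 and 107 FPKM in KO and 116, 98.3 and 167 FPKM in WT, at -0.26 with and -0.05 without WT 3. Sdhd had 143, 139.6 and 142 FPKM in KO and 166, 141 and 265 FPKM in WT, at -0.38 and -0.11. In both, WT 2 lay among the KO libraries.

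Complex III had the lowest median of the 5 complexes with all 6 libraries, -0.51 (range -0.60 to -0.26), and 9 of 9 genes were lower in KO. It also had the highest median ratio of WT 3 to the other WT libraries, 2.18. Without WT 3 its median was -0.12 (range -0.25 to -0.02), again with 9 of 9 lower.

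Uqcrc2 (chr7:120635176-120659524), a large core protein on the matrix side, had 89.8, 83.7 and 94.1 FPKM in KO, and 113, 99.9 and 193 FPKM in WT. No KO library reached the lowest WT value. The difference was -0.54 ± 0.25 (SE; limma adjusted p = 0.399), and -0.25 ± 0.09 without WT 3 (adjusted p = 0.349). Its partner Uqcrc1 was at -0.26 and -0.12, with overlapping libraries.

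Uqcrfs1, the Rieske iron-sulfur protein, had 108, 108 and 126 FPKM in KO and 140.2, 126 and 289 FPKM in WT. KO 3 and WT 2 nearly met, and the difference was -0.60 ± 0.31 with WT 3 and -0.23 ± 0.10 without it (adjusted p = 0.453 and 0.397). Cyc1, the heme subunit that docks cytochrome c, had 110.0, 116 and 128 FPKM in KO and 140.0, 125 and 224 FPKM in WT. It overlapped through KO 3 and WT 2, at -0.42 and -0.16. Of the small subunits, Uqcr11 had the highest level per length, 256, 278 and 297 FPKM in KO and 317, 279 and 695 FPKM in WT. Uqcrq had the highest WT 3 ratio of the 81 tested members, 2.54, and was at -0.47 with WT 3 and -0.02 without it.

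Cycs (chr6:50562563-50566538), the mobile cytochrome c between complexes III and IV, had the lowest difference of all 81 members with all 6 libraries. It had 19.0, 15.9 and 21.0 FPKM in KO, and 26.6, 21.3 and 56.2 FPKM in WT. KO 3 and WT 2 lay side by side, and WT 3 far above the rest. The difference was -0.75 ± 0.34 (SE; limma adjusted p = 0.397), and -0.35 ± 0.15 without WT 3 (adjusted p = 0.387). Its transcript of 3123 nt is long for a member, yet its WT 3 ratio was 2.35, against a median of 1.48 for the 7 members of 2000 nt and over. Of its stretches of 75 bases, 26.1% also occur in other annotated genes.

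**Figure D3:**
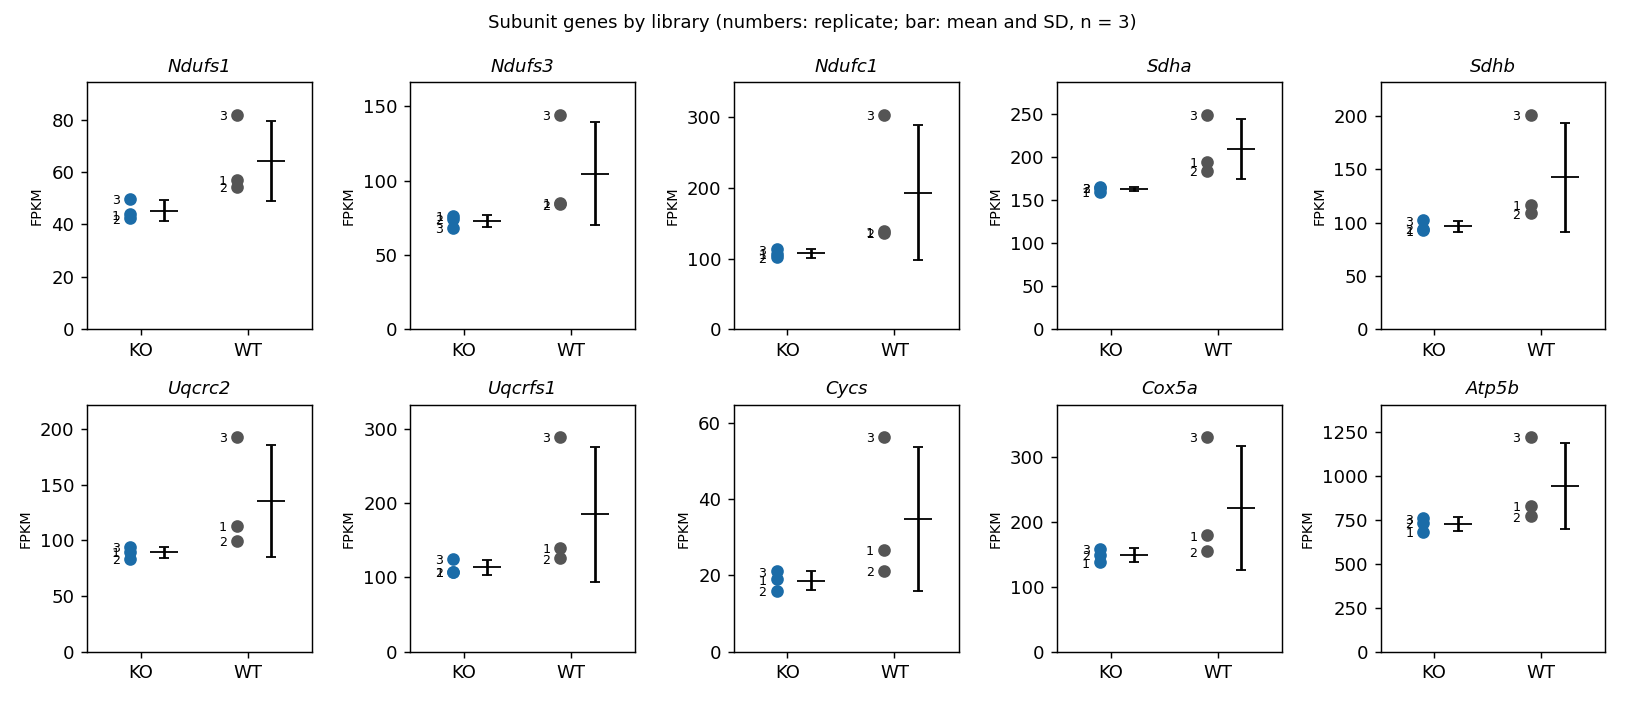
FPKM of 10 subunit genes in each library, from 0, with KO on the left and WT on the right, the replicate number beside each point and the mean and SD of 3 libraries as a bar. The 10 were picked for display and do not represent the members: in 9 of them every KO library lies below every WT library, the exception being Cox5a. Over all 81 tested members this held for 16 (19.8%), against 12.2% of all genes (17.9% without WT 3). In all 10 WT 3 is the highest point.

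Complex IV holds the member with the highest level per length, Cox8a. With all 6 libraries 11 of its 13 tested genes were lower in KO and 2 higher, with a median of -0.47 (range -0.52 to 0.37). Without WT 3 the counts were again 11 and 2, with a median of -0.08 (range -0.17 to 0.33). The 2 higher genes in both settings were the restricted isoforms Cox4i2 and Cox6b2.

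Cox8a, a small membrane subunit, had 767, 805 and 907 FPKM in KO and 942, 887 and 1951 FPKM in WT. WT 2 lay within the KO range. Its difference was -0.51, and -0.15 without WT 3. Cox4i1, the common form of the subunit through which ATP regulates the enzyme, had 629, 630.1 and 660.2 FPKM in KO and 695, 660.4 and 1166 FPKM in WT. All KO libraries lay below WT 2, but KO 3 by a small margin, and the difference was -0.34, and -0.08 without WT 3.

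Cox7a2, the common form of a subunit that also exists as the muscle form Cox7a1, had 232, 241 and 247 FPKM in KO and 279, 252 and 534 FPKM in WT. Again no KO library reached a WT library, at -0.48 ± 0.28, and -0.15 ± 0.08 without WT 3 (limma adjusted p = 0.5 and 0.476). Cox5a and Cox5b, subunits on the matrix side, overlapped between the labels, at -0.50 and -0.17 and at -0.48 and -0.09. Ndufa4 had the lowest difference of complex IV with all 6 libraries, -0.52, and was at -0.09 without WT 3.

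The isoforms known from particular tissues or from low oxygen were all minor. Cox4i2, the lung isoform that also serves oxygen sensing, had 6.52, 6.89 and 3.13 FPKM in KO and 5.87, 2.59 and 3.59 FPKM in WT. KO 1, KO 2 and WT 1 were its highest libraries. It made up 1.03%, 1.08% and 0.473% of Cox4i1 and Cox4i2 together in KO and 0.836%, 0.391% and 0.307% in WT, and its difference was 0.37 ± 0.33 (SE; limma adjusted p = 0.627), and 0.33 without WT 3. Cox6b2, known from testis, had 7.88, 6.99 and 5.02 FPKM in KO and 8.19, 3.61 and 4.82 FPKM in WT, with the same 3 libraries highest, at 0.26 and 0.21. KO 1, KO 2 and WT 1 were also among the 4 libraries with the most Foxj1. The other of those 4, KO 3, had more Foxj1 than WT 1 (20.0 against 13.9 FPKM). In Cox6b2 KO 3 came next after those libraries, but it had less Cox4i2 than WT 3, where Foxj1 was 0. The part of ciliated cells in these isoforms was not tested. Cox6a2, Cox7b2 and Cox8c had at most 1.25, 0.534 and 1.72 FPKM in any library.

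Ndufa4l2, a relative of Ndufa4 induced by low oxygen, ran the other way in WT 3. It had 14.0, 13.6 and 11.1 FPKM in KO, and 15.0, 13.8 and 6.36 FPKM in WT. WT 3 was the lowest library, and the rest overlapped, so the difference was 0.20 with WT 3 and -0.15 without it. Cox7a2l, which joins complexes III and IV into supercomplexes, had 117, 114 and 108 FPKM in KO and 99.6, 107 and 165 FPKM in WT. It was the one member of which every KO library lay above WT 1 and WT 2, against 14.1% of all genes, at 0.13 ± 0.07 (SE; limma adjusted p = 0.499); with WT 3 it was at -0.10. Atp5s, which takes part in coupling at ATP synthase, averaged 10.5 ± 1.29 FPKM in KO and 14.5 ± 5.10 FPKM in WT (SD, n = 3 each), at -0.39 and -0.13.

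**Figure D4:**
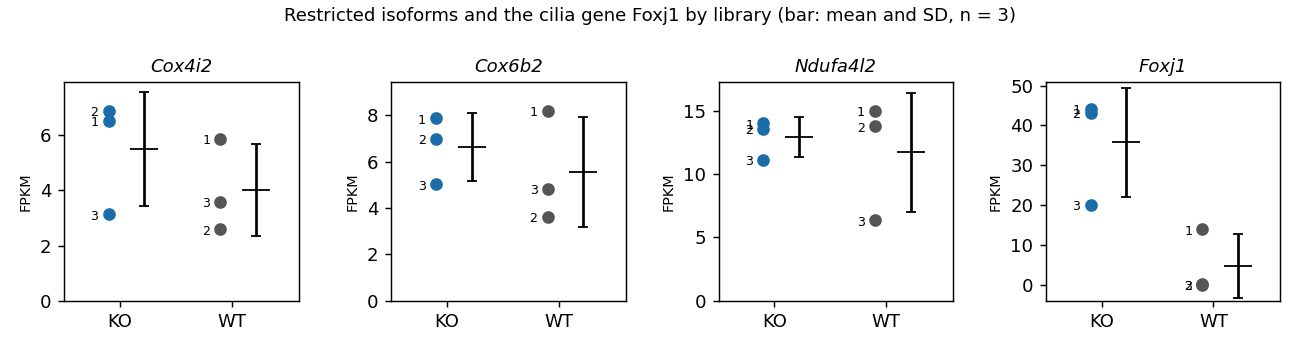
FPKM of Cox4i2, Cox6b2, Ndufa4l2 and the cilia gene Foxj1 in each library, with KO on the left and WT on the right, the replicate number beside each point and the mean and SD of 3 libraries as a bar. Cox4i2 and Cox6b2 overlap between the labels, Ndufa4l2 is lowest in WT 3 at 6.36 FPKM, and Foxj1 is higher in all KO libraries, with WT 1 at 13.9 FPKM.

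Complex V, ATP synthase, was lower in KO for 16 of 16 genes with all 6 libraries (median -0.36, range -0.60 to -0.11). Without WT 3 it was lower for 13 and higher for 3 (median -0.09, range -0.17 to 0.06). The 5 subunits of the catalytic head had medians of -0.37 with and -0.10 without WT 3, the 8 tested subunits of the stalks and membrane part -0.38 and -0.09, and the 3 genes of the rotating c ring -0.24 and 0.01.

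Atp5b (chr10:128083273-128090391), the catalytic beta subunit, had 682, 733 and 759 FPKM in KO, and 829, 771 and 1221 FPKM in WT. It was the only complex V gene with all KO libraries below all WT libraries. The difference was -0.35 ± 0.22 (SE; limma adjusted p = 0.517), and -0.14 ± 0.09 without WT 3 (adjusted p = 0.541). Atp5a1, the alpha subunit that alternates with it in the head, had 354, 356 and 364 FPKM in KO and 396, 362 and 563 FPKM in WT, at -0.27 and -0.08. KO 3 lay just above WT 2. The gamma subunit Atp5c1, the turning shaft, was at -0.40 and -0.10, Atp5d at -0.37 and -0.12 and Atp5e at -0.45 and -0.07.

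The c ring genes Atp5g1, Atp5g2 and Atp5g3 encode the same mature protein with different import signals. Atp5g3 supplied most of their summed FPKM, 75.8%, 77.4% and 77.2% in KO and 76.7%, 75.9% and 79.9% in WT. Its levels were 511, 596 and 584 FPKM in KO and 622, 503 and 951 FPKM in WT, which overlapped, at -0.25 with and 0.01 without WT 3. Atp5g1 was nearest to 0 of all complex V genes with all 6 libraries, at -0.11, and was at 0.05 without WT 3, and Atp5g2 was at -0.24 and -0.09. In Atp5g2 86.9% of stretches of 75 bases also occur in other annotated genes, so its reads could be divided among copies.

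Among the stalk and membrane subunits, Atp5k had the lowest difference of the complex in both settings, -0.60 and -0.17. It had 431, 306 and 429 FPKM in KO and 475, 394 and 1056 FPKM in WT, with KO 2 the lowest and the labels overlapping. Atp5j2 was at -0.52 and -0.11. Atp5l had the lowest level of the complex and overlapped, with 61.9, 74.3 and 59.4 FPKM in KO and 73.7, 52.5 and 131 FPKM in WT, at -0.30 with WT 3 and 0.06 without it. Of its stretches of 75 bases, 63.4% occur elsewhere. Altogether 56 of 84 members shared no stretch of 75 bases with another gene, 12 shared over 20% and 3 over 50%, the third being Cox7c at 50.4%.

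The members are short transcripts, and short transcripts as a class were raised in WT 3. The median length of the tested members was 776 nt, against 2839 nt over all tested genes. Over the genes, Spearman's rho between length and the ratio of WT 3 to WT 1 and WT 2 was -0.48 for the 81 members and -0.45 for 12537 genes, given as a description since genes share their library. The members had the higher ratios in each range of length. Under 600 nt the median WT 3 ratio was 2.13 for 24 members and 1.83 for all 187 genes, from 600 to under 1000 nt it was 1.98 for 27 members and 1.54 for 685 genes, from 1000 to under 2000 nt it was 1.80 for 23 members and 1.27 for 2887 genes, and from 2000 nt up it was 1.48 for 7 members and 0.97 for 8780 genes. Those 7 members were no longer than 3171 nt, and the 3375 genes within their range of 2020 to 3171 nt had a median of 1.09.

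With all 6 libraries the KO minus WT differences of all genes also lay lower at short lengths (Spearman's rho with length 0.30). Without WT 3 rho was -0.0025 over all genes and -0.09 over the members. Under 600 nt the median was -0.48 for the members and -0.35 for all genes, and without WT 3 it was -0.12 and -0.06. From 600 to under 1000 nt it was -0.37 for the members and -0.26 for all genes, and -0.09 and -0.04 without WT 3. From 1000 to under 2000 nt it was -0.40 for the members and -0.14 for all genes, and -0.11 and -0.03 without WT 3. From 2000 nt up it was -0.35 for the 7 members and -0.02 for all genes, and -0.18 and -0.03 without WT 3. A lowess correction of each library for transcript length left a median of -0.17 over the members with all 6 libraries (71 of 81 below 0, against 50.7% of all genes, and 6 lower at an unadjusted p under 0.05, against 4.37%), and of -0.05 without WT 3 (63 of 81 below 0, against 50.8%, and 5 lower at an unadjusted p under 0.05, against 4.2%). By complex, the length-corrected medians were -0.17 for complex I, -0.26 for complex II, -0.20 for complex III, -0.15 for complex IV and -0.10 for complex V, and without WT 3 they were -0.05, -0.13, -0.09, -0.03 and -0.05.

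**Figure D5:**
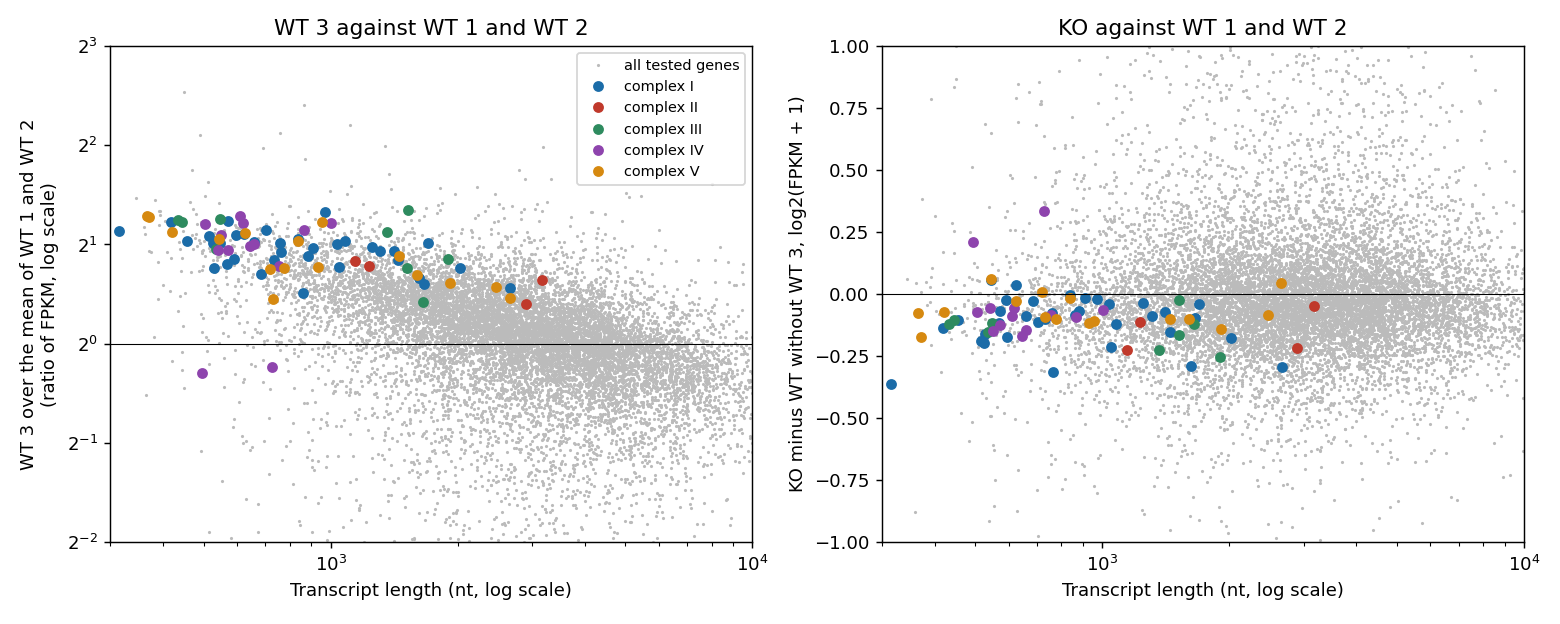
Left, the ratio of WT 3 to the mean of WT 1 and WT 2 (log scale), and right, the KO minus WT difference in log2(FPKM + 1) without WT 3, against transcript length (nt, log scale), for all tested genes in grey and the subunit genes coloured by complex; points beyond the axes are not drawn. On the left nearly all subunit genes lie above 1 and higher at short lengths, and on the right they lie mostly between 0 and -0.36.

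Genes that build, feed or regulate the chain were counted from lists. For each list the background is the same. Over all tested genes, 59.2% were below 0 with all 6 libraries and 58% without WT 3. At an unadjusted p under 0.05 limma called 4.43% of all genes lower and 9.13% higher, and 5.67% and 8.01% without WT 3. Assembly factors of complex I were lower in KO for 15 of 15 tested genes with all 6 libraries and for 13 without WT 3 (medians -0.31 and -0.13), with 0 at an unadjusted p under 0.05. Those of complex II were lower for 4 of 4 (median -0.31, and -0.0017 without WT 3, where 2 were lower and 2 higher). Those of complex III were lower for 6 of 6 and, without WT 3, for 5 (medians -0.37 and -0.15). The 3 of complex V were lower in both settings (medians -0.46 and -0.25). The only ones of these at an unadjusted p under 0.05 were Tmem70, an ATP synthase factor, at -0.49 with and -0.27 without WT 3, and Bcs1l. Bcs1l, which inserts the Rieske protein into complex III, had 8.80, 7.83 and 8.37 FPKM in KO and 10.6, 10.2 and 14.3 FPKM in WT. All its KO libraries lay below all WT libraries, and the difference was -0.43 ± 0.14 (SE; limma adjusted p = 0.26), and -0.29 without WT 3.

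Assembly factors of complex IV were lower for 19 of 20 and, without WT 3, for 17 (medians -0.27 and -0.08), against 59.2% and 58% of all genes. With all 6 libraries 3 were lower and 1 higher at an unadjusted p under 0.05, against 4.43% and 9.13% of all genes. The lower ones were Pet100 at -0.87 (-0.47 without WT 3), Cox16 at -0.56 (-0.30) and Cox11, which carries copper, at -0.31 (-0.23). The higher one was Sco2, a copper chaperone, with 15.6, 12.8 and 10.7 FPKM in KO and 8.11, 8.41 and 11.0 FPKM in WT. Its labels overlapped only through KO 3 and WT 3, and its difference was 0.46 ± 0.17 (SE; limma adjusted p = 0.317), and 0.59 without WT 3.

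Enzymes that pass electrons to ubiquinone beside complexes I and II were lower for 7 of 7 tested genes, and for 6 without WT 3 (medians -0.44 and -0.22). At an unadjusted p under 0.05, 3 were lower with all 6 libraries, against 4.43% of all genes, and 4 without WT 3, against 5.67%. Etfb, a subunit of the flavoprotein that receives electrons from fatty acid oxidation, had 191, 190.0 and 187 FPKM in KO and 238, 224 and 376 FPKM in WT. All KO values lay below all WT values, at -0.52 ± 0.21 (SE; limma adjusted p = 0.355), and at -0.28 ± 0.07 without WT 3 (adjusted p = 0.349). Its partner Etfa was at -0.47 and -0.29, and Gpd2, the mitochondrial glycerol phosphate dehydrogenase, at -0.44 and -0.29, also without overlap.

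Regulators of mitochondrial genes showed no common direction. Of 12 tested, 7 were lower and 5 higher (median -0.04, and -0.07 without WT 3), and 0 were at an unadjusted p under 0.05. Tfam, which packages mitochondrial DNA, had 10.8, 13.5 and 11.9 FPKM in KO and 16.4, 12.1 and 19.6 FPKM in WT, which overlapped, at -0.36 (limma adjusted p = 0.441), and -0.21 without WT 3. The carriers of phosphate and of ADP and ATP and the outer membrane channels were lower for 6 of 6 and, without WT 3, for 5 (medians -0.20 and -0.03), with 0 at an unadjusted p under 0.05.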

How the data were processed

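Messenger RNA of 6 eWAT libraries was sequenced with a stranded kit, per the labels' protocols. STAR 2.5.4, Cufflinks and Cuffdiff 2.2.1 and the build mm10 are named in the submitters' processing notes; the sources used here do not give the annotation, the filters or the scaling by depth. The deposited table holds 1 column of FPKM per library, made by the authors without pooling. The unit was inferred from those tools and from values that are not whole, so no count-based test was run and no counting intervals are given.

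Of 21853 rows, 24 that repeated a symbol were dropped, the row with the highest mean being kept. Tests covered 12539 genes whose mean reached 1 FPKM. Their log2(FPKM + 1) values entered limma 3.58.1 (R 4.3.3) with the label as sole factor, a mean-variance trend and Benjamini-Hochberg adjustment over all of them, at 0.05; the fit was tested on simulated data. The same fit was made without WT 3, and with a lowess correction (span 0.3) for transcript length from GENCODE vM21 on GRCm38. Lists were counted, with no set test. Named members were those of fixed roles, the 3 with the smallest p, the highest and lowest differences and levels in each complex, and the restricted isoforms; Ndufb3, and the genes of fully separated groups, were named after their values were seen. The members and lists were chosen with earlier results of these data known. The numbering of the libraries was not found to pair them. The values of 1 member are not reported here.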

Additional observations from a re-analysis of the deposited data

How the results depend on the processing

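The number of genes past the adjusted threshold was 0 under 15 of 17 alternatives. Array weights gave 970 genes and 3 members, and leaving out single libraries gave 0 to 482 genes, the 482 without WT 1, and 0 members each time. Over libraries left out, the median difference of a complex ranged from -0.60 to -0.05 in complex I, -0.50 to -0.13 in complex II, -0.76 to -0.090 in complex III, -0.70 to -0.031 in complex IV and -0.56 to -0.05 in complex V. The length correction without WT 3, an alternative chosen after seeing the data, gave -0.05, -0.13, -0.090, -0.031 and -0.05 for complexes I to V. The size also depended on scaling with all 6 libraries kept. Quantile normalization gave medians of -0.19, -0.10, -0.20, -0.15 and -0.08 for complexes I to V. The main fit gave -0.41, -0.36, -0.51, -0.47 and -0.36, and scaling by median ratios -0.36, -0.31, -0.46, -0.42 and -0.31. Zfp251 was past the threshold with array weights (0.64) and without WT 1 (0.78), its range being 0.65 to 0.78 over libraries left out; a filter at 5 FPKM dropped it. These causes were not tested.

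Among the named genes, the sign changed under quantile normalization for Atp5a1 (0.038), Atp5g1 (0.095), Atp5g3 (0.061) and Cox7a2l (0.16). It changed under the length correction for Atp5g2 (0.039), Atp5g3 (0.036), Atp5l (0.042), Cox7a2l (0.10) and Ndufa11 (0.057), and with array weights for Cox6b2 (-0.051), Cox7a2l (0.17), Ndufa4l2 (-0.10) and Ndufb7 (0.024). Without WT 3 it changed for Atp5g1 (0.046), Atp5g3 (0.0080), Atp5l (0.060), Cox7a2l (0.13), Ndufa11 (0.058), Ndufa4l2 (-0.15) and Ndufb7 (0.038). The lowest values of these 7 genes over libraries left out were -0.25, -0.45, -0.59, -0.23, -0.51, -0.15 and -0.51, in that order, and Ndufa4l2 reached 0.41 without WT 1. Without WT 3 and with the length correction it changed for Atp5e (3.0e-05), Atp5g1 (0.079), Atp5g3 (0.058), Atp5l (0.12), Cox7a2l (0.16), Ndufa11 (0.12), Ndufa4l2 (-0.11), Ndufb4 (0.018), Ndufb7 (0.093) and Uqcrq (0.0067). Of the tested members not named, the sign changed for 1 under quantile normalization, 2 under the length correction and 7 under the length correction without WT 3, to at most 0.039.

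With the replicate number as a block 0 genes passed the threshold, the complex I median was -0.41 and 11 members were at an unadjusted p under 0.05, against 3 without the block; all genes were at 13.7% and 13.6%. Deviations of same-numbered libraries correlated at 0.23, -0.20 and 0.22, and not every library correlated best with its own number. Precision is limited by 3 libraries a group, by unknown depth and by the distance of WT 3 from WT 1 and WT 2.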
